A study of Homo sapiens with 9 samples.

Results

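The peaks described here lay at the 3′ ends of longer introns. A merged peak was taken when its centre fell in the last 100 nt of an intron of at least 200 nt, on the same strand, in the Ensembl canonical coding transcript of a gene (GENCODE release 44, GRCh38). There were 161587 such introns in 18416 genes, and 57264 of the 2478204 merged peaks (2.31%) met the rule, at 27618 splice sites or 17.1% of those eligible. SF3B4 gave 36185 of these peaks (63.2%), RBFOX2 gave 13339 (23.3%), PRPF8 gave 3666 (6.4%) and the other 8 RNA binding proteins (RBPs) together gave 4074 (7.11%). These shares are not scaled to the number of peaks called, and 7950 of the RBFOX2 peaks came from its 2 libraries made without other antibodies. By library, such peaks were 16.6% to 42% of the merged SF3B4 peaks and 0.782% to 1.68% of the merged RBFOX2 peaks.

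The peaks came from antibody-barcode eCLIP (ABC), in which RNA crosslinked to an RBP by UV light is ligated to the DNA barcode of the antibody that pulled it down. Pools of 10 barcoded antibodies (10plex ABC, against RBFOX2, PUM2, DDX3, FAM120A, ZC3H11A, LIN28B, SF3B4, EIF3G, PRPF8 and IGF2BP2) were analysed in 3 replicates of K562, a human chronic myeloid leukaemia line with erythroid traits, and 2 of HEK293T, a human embryonic kidney line that carries the SV40 large T antigen. Single antibodies (singleplex ABC) were analysed in 2 replicates each, for RBFOX2 in HEK293T and SLBP in K562. The labels name no genetic change and no drug treatment in any group, each cell type is 1 line, and a barcode stands for an antibody, so that RNA held by a partner of the RBP is counted with it.

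At the end of an intron lie the branch point adenosine, a tract rich in pyrimidines and the terminal AG. SF3B4 is a subunit of SF3b, the part of the U2 snRNP that holds the branch point region, whereas PRPF8 sits at the centre of the spliceosome in the U5 snRNP, next to both splice sites. RBFOX2 regulates alternative splicing through GCATG beside exons, and many introns of ribosomal protein and translation factor genes hold small nucleolar RNAs (snoRNAs) that are cut out of the spliced intron.

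The last 30 nt of 6 introns show what SF3B4 peaks covered, with capitals for the bases that lay under the peak of every library in question. For the first 3 introns, which had the highest mean fold among the sites enriched in both cell lines, these are all 5 SF3B4 libraries. For the others, 3 of the 6 sites named for the highest folds in K562, they are the 3 K562 libraries. At the 3 of these sites that are not shown, the peaks of every K562 library covered 16 (RPS25), 1 (POLG2) and 0 (SNRPA1) of the last 30 nt. All sequences are from GRCh38, read 5′ to 3′ on the strand of the gene.
ZMYM2 intron 7 (chr13:20026582-20026611, plus strand): AAAATTATCTTTTTATGTTTCAAATTTTag
RPL12 intron 1 (chr9:127450805-127450834, minus strand): GCACAGACACTAACTCTTCTTTTCCCCCAG
FANCL intron 7 (chr2:58165875-58165904, minus strand): TAACTTATTCAACTTTcatttttttcacag
VDAC2 intron 7 (chr10:75222222-75222251, plus strand): CTAGATCTACTAATTTAAAATATCTTATAG
MED23 intron 15 (chr6:131603205-131603234, minus strand): TTGGTACCTTAAATTGTCTTTTTCCTCCAG
OSBPL9 intron 20 (chr1:51785778-51785807, plus strand): ACTAACACAAGTatttccttttctgttcag

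For RBFOX2, the GCATG nearest to the peak is shown in capitals with 10 nt on both sides, for the introns with the highest mean folds in K562 (LRCH4, PPIP5K2) and in singleplex ABC (LRCH4, ADAM15, YARS1).
LRCH4 intron 17 (chr7:100575405-100575429, minus strand): cagcacgtcaGCATGtgggcgtggt
PPIP5K2 intron 26 (chr5:103186245-103186269, plus strand): attgcatgctGCATGaattcccaat
ADAM15 intron 20 (chr1:155061838-155061862, plus strand): gaatctctgtGCATGtccacagccc
YARS1 intron 7 (chr1:32786491-32786515, minus strand): gaatagtcatGCATGtgagctagga

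The reads in merged peaks ran from 13351 to 2797670 over the 10plex libraries, with PUM2 the shallowest, and from 185953 to 487078 in the SF3B4 libraries. The labels of both HEK293T pools disagree on the cell line (the title gives HEK293T, another field K562), and those of K562 replicate 3 give K563. The paper names its embryonic kidney line HEK293XT, and the name in the titles is used here. SF3B4 peaks at the splice sites of 12 erythroid marker genes went with the titles: 43 of their 131 eligible introns (32.8%) had a peak in K562, against 1 (0.763%) in HEK293T, an intron of EPOR. Of the 70 introns of 12 kidney and neural marker genes, 0 had one in K562 and 2 (2.86%) did in HEK293T, both in EYA1, so that the other 11 genes marked neither line. The labels do not say whether replicates were separate cultures. The p-values of tests within pools place 1 antibody among the 10 of each tube, and do not measure the spread between replicates. Those between cell lines or formats compare these libraries only. In these data, more binding and more RNA of a gene cannot be told apart.

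SF3B4 was the RBP whose enriched peaks lay at 3′ splice sites. Enriched means P below 0.001 and a fold above 8 over the complement control (CC), for which the reads of the 9 remaining antibodies in the tube were added up. In K562, 59.1%, 69.3% and 71.3% of the CC-enriched SF3B4 peaks were at these splice sites (66.5% ± 6.54, SD, n = 3), and in HEK293T 62.4% and 55.8% (59.1% ± 4.66, n = 2). No other RBP exceeded 2.64% in any library, so that the groups were far apart. The difference of SF3B4 from the mean of the other 9 was 65.8 percentage points in K562 (exact permutation of RBP labels within pools, two-sided, p = 0.001, adjusted over 10 RBPs 0.01), and 58.6 points in HEK293T (exact p = 0.01, adjusted 0.1), where 2 pools cannot give a lower value. As the CC is made of the other libraries of a pool, enrichment of 1 barcode lowers that of the rest. Between the cell lines the SF3B4 shares overlapped, and the difference of HEK293T from K562 was -7.42 points (exact permutation p = 0.4, smallest possible 0.2).

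**Figure D1:**
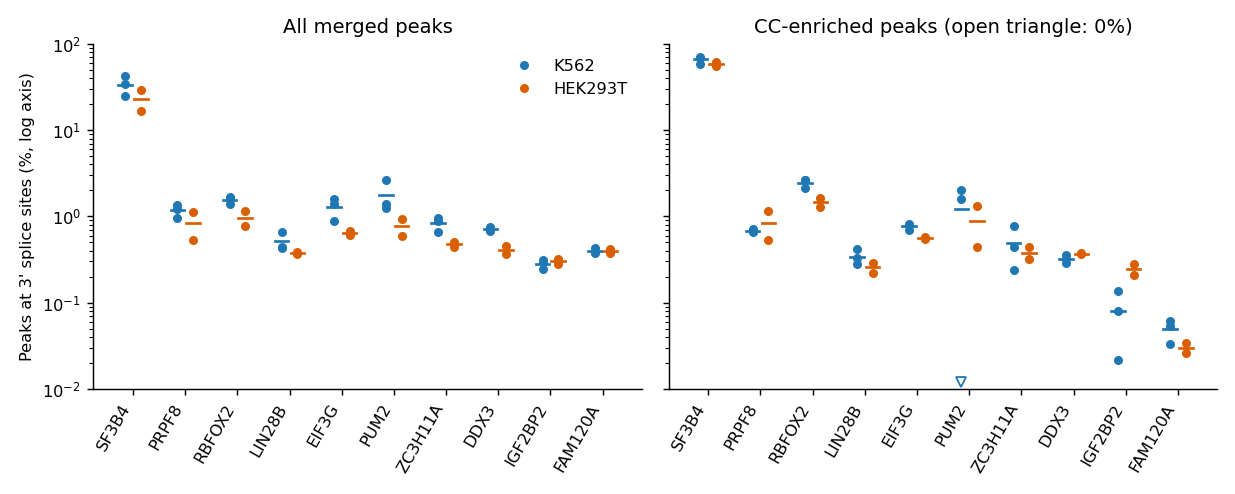
Share of all merged peaks (left) and of CC-enriched peaks (right) of each 10plex library at the 3′ splice sites of introns of at least 200 nt, in percent on a log axis. Each dot is a library, short lines are means over replicates, and the open triangle is a library with 0 enriched members. SF3B4 lies between 55.8% and 71.3% on the right, and all others at 2.64% or below.

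Enrichment over the CC was also frequent among the SF3B4 peaks at these sites. In K562, 12673 of 21054 members with a CC value (60.2%) were called, where 30.9% of all SF3B4 peaks were, and in HEK293T 8423 of 13396 (62.9%), where 24.2% of all were. RBFOX2 stood closer to its background, with 284 of 1821 members called in K562 (15.6%, background 11.2%) and 221 of 3136 in HEK293T (7.05%, background 5.84%). For PRPF8, 250 of 1924 members were called in K562 (13%), below its background of 22.5%, and 275 of 1494 in HEK293T (18.4%, background 17.4%). FAM120A had 13 of 634 members called in K562 (2.05%, background 18.6%) and 11 of 806 in HEK293T (1.36%, background 20.3%), and LIN28B 56 of 218 (25.7%, background 37.6%) and 28 of 157 (17.8%, background 27.2%). For both, the share among members lay below that of all their peaks, a difference that was not tested.

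The SF3B4 peaks formed a band upstream of the splice site. Their median distance from the last base of the intron was 27, 31 and 35 nt in the 3 K562 libraries, with quartiles of 17 to 38, 21 to 41 and 28 to 42 nt, and 39 and 35 nt in HEK293T, with quartiles of 32 to 48 and 24 to 49 nt. The 10 nt with the most peaks were 21 to 30 nt before the exon in K562 replicate 1 (26.3%) and 31 to 40 nt in the other 4 libraries (22.9% to 37.3%). Peaks that ran into the exon made up 39.2%, 34% and 16.9% of members in K562 and 9.95% and 28.2% in HEK293T, so that the libraries with the shorter distances in each line were those with more such peaks. At the outer edge of the window, 834 SF3B4 centres lay in the last 10 nt inside it, and 795 in the 10 nt just outside.

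**Figure D2:**
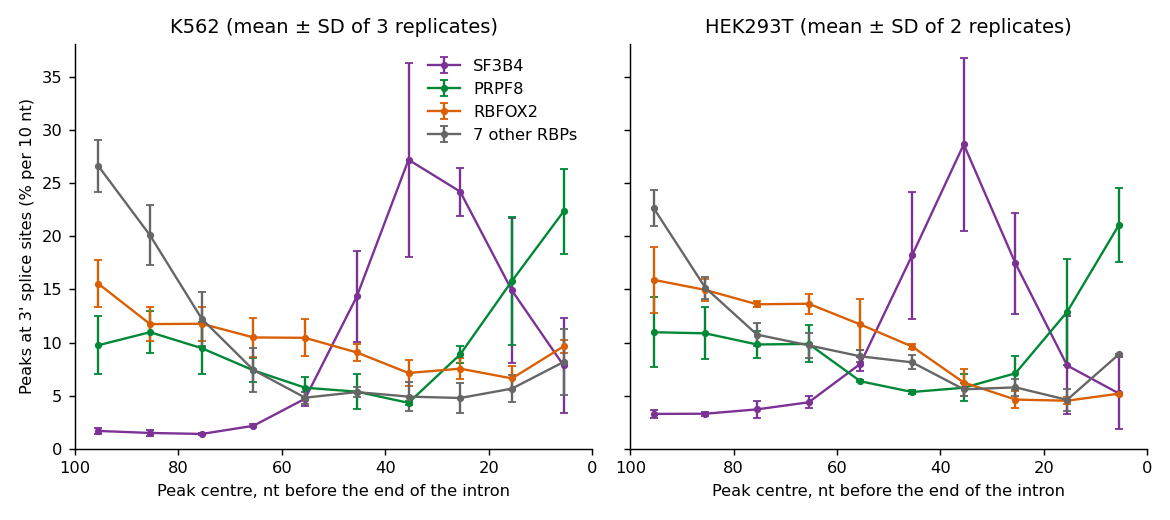
Distribution of peak centres over the last 100 nt of the intron in steps of 10 nt, as percent of the members of a library, for SF3B4, PRPF8, RBFOX2 and the mean of the 7 other RBPs of 10plex ABC. Points are means over replicates and bars are SDs. SF3B4 peaks between 21 and 50 nt, PRPF8 is highest in the 10 nt next to the exon, and the 7 other RBPs rise towards 100 nt.

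The median distance of SF3B4 in K562 (31 nt ± 4, n = 3) was 37.7 nt shorter than the mean of the other 9 RBPs (difference -37.7, exact permutation p = 0.004, adjusted 0.03), whose libraries had medians from 23 to 88 nt. This difference depended on which peaks were counted. Without the members in small RNA genes it was -13 nt (exact p = 0.132), and within the last 50 nt of the intron it turned to 6.96 nt (exact p = 0.125). In the 10 nt next to the exon lay 2.81% to 11.8% of the SF3B4 centres. The peak between 21 and 50 nt was seen in each library: 56.1%, 63.1% and 78.1% of SF3B4 members in K562 and 70.9% and 57.7% in HEK293T were there, against at most 27% in the 27 other K562 libraries.

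A branch point-like sequence was frequent at the SF3B4 sites found in every replicate, but by library SF3B4 did not stand apart from the other RBPs. CTNAC, in which the A stands for the branch point adenosine, was looked for on the strand of the gene in the last 60 nt of each intron, and 25.9% of all eligible introns held it. It was found at 39.7% of the 1498 sites with an SF3B4 peak in every K562 replicate, and at 24.9% of the 13800 other eligible introns of the same genes. In HEK293T these values were 36.8% of 2667 sites and 24.3% of 23328 introns, and at the 607 sites found in all 5 libraries 41.4%. Sites with an SF3B4 peak in any replicate held it in 31.1% (K562) and 31.8% (HEK293T). By library, it was at 39%, 30.8% and 31.9% of the SF3B4 sites in K562 and 30.7% and 35.2% in HEK293T, within the range of the other 9 RBPs (25% to 50%, mean 34.3%, in K562, and 29.2% to 50%, mean 34.1%, in HEK293T). These are descriptions of sequence, with no test. The mean pyrimidine content of the 27 nt before the last 3 nt, in contrast, was 69.5% at the K562 sites, 68% at the HEK293T sites and 69.6% over all eligible introns.

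Where an SF3B4 site held CTNAC, the peak centre was close to its A, with a median difference of 0, 2 and 7 nt in K562 and 10 and 6 nt in HEK293T (a positive value means that the centre was further upstream). The RBFOX2 centres of the same measure were 34 to 37.5 nt upstream in K562 and 38 and 39.5 nt in HEK293T. Those of PRPF8 varied, with 29, 6 and -1 nt in K562 and 12 and 33 nt in HEK293T, so that some of its libraries were as close to the A as SF3B4. With the A at 16 to 25 nt from the exon the median SF3B4 centre was at 23, 24 and 29 nt in K562, and with the A at 36 to 45 nt it was at 34, 36 and 38 nt. Over all such peaks the correlation of both positions was weak nevertheless, with r from 0.0576 to 0.136 over the 5 libraries and 1435 to 3147 peaks in each.

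The sites themselves were recovered unevenly. In K562, 15370 splice sites had an SF3B4 peak in any replicate, 4831 in at least 2 and 1498 (9.75%) in every replicate, of which 608 were CC-enriched in all 3. Replicate 2, the deepest, had 11773 sites, and 38.2% of them were found in another replicate, against 68.3% of replicate 1 and 66.1% of replicate 3. In HEK293T, 2667 of 11293 sites (23.6%) were in both replicates, and 1189 were enriched in both. The 607 sites shared by all 5 libraries were 40.5% of those in every K562 replicate and 22.8% of those in both HEK293T replicates, and lay in 534 genes.

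Intron rank did not set SF3B4 apart. First introns made up 10%, 8.12% and 9.92% of its members in K562 and 9.95% and 10.1% in HEK293T, and 10.7% of all eligible introns were first introns. The difference from the other 9 RBPs in K562 was -2.84 points (exact permutation p = 0.16, adjusted 0.533). Among genes with an SF3B4 site in every K562 replicate, 13.3% of first introns, 12.3% of the introns ranked next, 13.4% of introns 3 to 5 and 11.9% of introns 6 to 10 had such a site. For introns ranked 11 and higher it was 6.32%. The same classes in HEK293T gave 14.5%, 14.6%, 13.1%, 12.1% and 6.69%, and last introns had 14.1% in K562 and 13.5% in HEK293T. Over all eligible introns, whatever the gene, the order was not the same: in K562 0.806% of first introns, 0.795% of those ranked next, 1.13% of introns 6 to 10 and 0.805% of introns ranked 11 and higher had such a site, and in HEK293T 1.53%, 1.64%, 1.99% and 1.42%. The low share of late introns was thus seen among genes with a site, and not against first introns of all genes in K562.

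By intron length, the longest class had the lowest share. Of the introns of these genes from 200 to below 500 nt, 9.18% had an SF3B4 site in every K562 replicate, which was 10.9% for 2000 to below 5000 nt and 7.23% for 20000 nt and longer. In HEK293T the shares were 11.5%, 10.4% and 7.64%. Over all eligible introns of any gene the share fell more steeply, from 1.17% of the shortest class to 0.98% and 0.29% in K562, and from 2.4% to 1.63% and 0.524% in HEK293T. The longest intron with a peak of any RBP had 404679 nt.

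**Figure D3:**
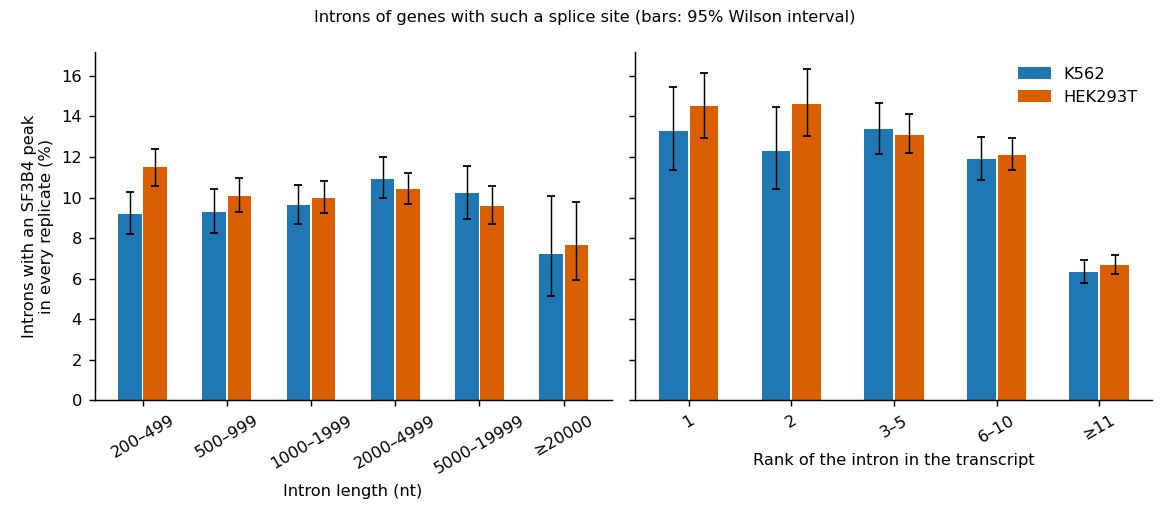
Share of eligible introns with an SF3B4 peak in every replicate, in percent, by intron length (left) and by rank of the intron in the transcript (right), among genes with at least 1 such site. Bars are K562 and HEK293T, and error bars are 95% Wilson intervals, which cover counting error only. Among these genes the share is lowest for introns ranked 11 and higher, at 6.32% and 6.69%.

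By library, the SF3B4 members lay in longer introns than those of the other RBPs. Median lengths were 1572, 1888 and 1763 nt in K562 and 1545 and 1550 nt in HEK293T, whereas the 27 other K562 libraries had medians from 277 to 1024 nt, with no overlap. All eligible introns had a median of 1948 nt. On the log10 scale the difference in K562 was 0.475 (exact permutation p = 0.001, adjusted 0.01), and in HEK293T 0.332 (exact p = 0.01, adjusted 0.1). Without members in small RNA genes the K562 difference was 0.23 (exact p = 0.083), and with CC-enriched members alone, for which PUM2 was left out, it was 0.17 (exact p = 0.436).

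Several introns with the strongest SF3B4 folds rested on few reads. The gene for ZMYM2, a zinc finger protein of the nucleus, had 10, 25 and 17 reads in K562 and 25 and 13 in HEK293T at intron 7 of its 24 introns, with log2 folds over the CC of 5.65, 6.86 and 5.30, and 8.83 and 6.84. RPL12, which encodes a protein of the large ribosomal subunit, had 28, 38 and 24 reads at intron 1 in K562 and 10 and 13 in HEK293T. Its log2 folds over the CC were 4.97, 4.29 and 4.80, and 7.51 and 7.84. Both HEK293T libraries were higher than all K562 libraries, and yet over the external background the order was turned. The log2 fold there was 8.35 ± 0.34 in K562 and -0.49 ± 0.01 in HEK293T. For this background the paper names different RNA-seq data for each cell line, and its source is not given for each library. At FANCL, a ubiquitin ligase of the Fanconi anaemia pathway, intron 7 of 32719 nt had 12, 42 and 6 reads in K562 and 9 and 10 in HEK293T, with log2 folds of 6.92, 5.80 and 4.28, and 7.35 and 4.65, so that the lines overlapped.

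The highest mean log2 fold in K562 was at intron 3 of RPS25, a protein of the small ribosomal subunit (6.75 ± 0.73, SD, n = 3, from 6, 17 and 8 reads). VDAC2, a channel of the outer mitochondrial membrane, followed at intron 7 (6.73 ± 0.60, from 7, 34 and 10 reads), then MED23, a Mediator subunit (6.51 ± 0.72), and POLG2, an accessory subunit of the mitochondrial DNA polymerase (6.41 ± 1.29). These 4 sites had a peak in 1 of the 2 HEK293T libraries each. SNRPA1, a protein of the U2 snRNP, had 37, 65 and 21 reads at its intron 6, with the centres 78, 90 and 91 nt from the exon, further upstream than most SF3B4 peaks. OSBPL9, an oxysterol-binding protein homologue, had peaks 26, 25 and 36 nt from the exon, and the A of its CTAAC at 26 nt. SNRPA1 and RPS25 also held CTNAC, but away from their peaks. At SNRPA1 the A lay 26 nt from the exon. At RPS25 it lay at 57 nt, and the peak centres were at 23, 18 and 29 nt. A fold takes the CC as at least 1 read, so that the folds of sites with no CC read are lower limits of those counts.

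Sites of 1 cell line were found in both directions. IRS4, an adaptor of insulin receptor signalling, has a single intron, whose end had 187 and 104 SF3B4 reads in HEK293T (log2 fold 6.03 and 4.46) and no peak in K562. FKBP10, a prolyl isomerase of the endoplasmic reticulum, had 39 and 55 reads at intron 7 in HEK293T (4.04 and 3.60), and no peak in K562 either. In K562 the sites with most reads and no HEK293T peak were intron 20 of EIF4G1, with 149, 490 and 199 reads, and intron 7 of RPL3, with 270, 387 and 145 reads. Their peaks lay in SNORD66 and SNORD83B, 95 to 99 nt from the exon, and were not CC-enriched in any library (log2 fold from 1.48 to 2.02).

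The genes of splicing factors held SF3B4 sites in any replicate at a higher share of introns than all genes, but not on every count. For the 12 genes of SR proteins, which bind exonic enhancers, 33 of 60 eligible introns (55%) had an SF3B4 peak in K562 and 26 (43.3%) in HEK293T. For 20 genes of hnRNP proteins, which coat nascent RNA, 74 of 150 introns (49.3%) and 70 (46.7%) did. Over all eligible introns the shares were 9.51% in K562 and 6.99% in HEK293T. Introns of U2 snRNP genes had a peak in 51 of 166 cases (30.7%) in K562 and 39 (23.5%) in HEK293T, and those of U5 and tri-snRNP genes in 31 of 175 (17.7%) and 26 (14.9%). For sites in every replicate the shares were 15% (SR), 15.3% (hnRNP), 6.63% (U2) and 0.571% (U5 and tri-snRNP, 1 of 175 introns) in K562, where 0.927% of all eligible introns had one, and 18.3%, 18.7%, 9.64% and 2.29% in HEK293T, where 1.65% did. The U5 and tri-snRNP genes in K562 were thus below all introns on this count. HNRNPH1, a regulator of splicing through G-rich sequences, had 7, 6 and 7 of its 9 eligible introns with a peak in the K562 libraries and 7 and 5 in HEK293T. SF3B3, a large scaffold subunit of SF3b, had 6, 8 and 4 of 24, and 6 and 7 in HEK293T.

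PRPF8 gave fewer members with another profile. In its libraries, 63.9%, 67.2% and 66.9% of the CC-enriched peaks in K562 lay in the first 100 nt of introns of this length, and 0.651%, 0.716% and 0.675% in the last 100 nt. Its members fell into a group at the exon border and one far upstream. Centres within 20 nt of the exon made up 27%, 40.9% and 46.5% in K562 and 39.9% and 27.9% in HEK293T, and centres 61 to 100 nt away 46.5%, 35.3% and 30.8%, and 35.3% and 47.7%. The median was thus unsteady, at 55.5, 30.5 and 23 nt in K562 and 34 and 57 nt in HEK293T. It was 31.7 nt shorter than that of the other 9 in K562 (difference -31.7, exact permutation p = 0.006, adjusted 0.03), but -10.8 nt without members in small RNA genes (exact p = 0.215).

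The introns with an SF3B4 peak at the end often had a PRPF8 peak at the start in the same pool. This was so for 45.6%, 47.8% and 56.5% of SF3B4 sites in K562 and 39.3% and 37.3% in HEK293T, while of all eligible introns 12.7% to 18.6% had a PRPF8 peak there. At the 3′ splice site itself PRPF8 and SF3B4 had sites in common in every pool, which were 23.8% to 39.2% of the PRPF8 sites and 2.27% to 3.63% of the SF3B4 sites, where 2.71% to 7.29% of all eligible sites had an SF3B4 peak. Sharing with SF3B4 was not particular to PRPF8: it was 24.3% to 36.3% of the RBFOX2 sites, and for the 7 other RBPs 36.4% (LIN28B) to 85.3% (EIF3G) of sites. These sites include small RNA genes within the window. Such genes held 70.3% of members in that EIF3G library (K562 replicate 1) and 37.1% in that LIN28B library (K562 replicate 3). Sharing without them was not measured. Among the PRPF8 sites with the highest folds over the CC in K562 was intron 5 of ADCY7, an adenylate cyclase, with 6, 21 and 31 reads and log2 folds of 3.99, 4.50 and 3.70, and no peak in HEK293T.

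RBFOX2 peaks at these sites were marked by GCATG. Within 50 nt of the peak on its strand, 32.7%, 43.4% and 38.1% of members in K562 held the motif, 45.9% and 44.5% in HEK293T and 49.8% and 50.4% in singleplex ABC. Over the 9 other RBPs no library of either line reached the RBFOX2 values, and their mean was 8.57% in K562 and 11.7% in HEK293T. The difference in K562 was 29.5 points (exact permutation p = 0.001, adjusted 0.01), and in HEK293T 33.6 points (exact p = 0.01, adjusted 0.1). The last 100 nt of all eligible introns held GCATG in 7.53%, over a stretch that is shorter than any extended peak.

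**Figure D4:**
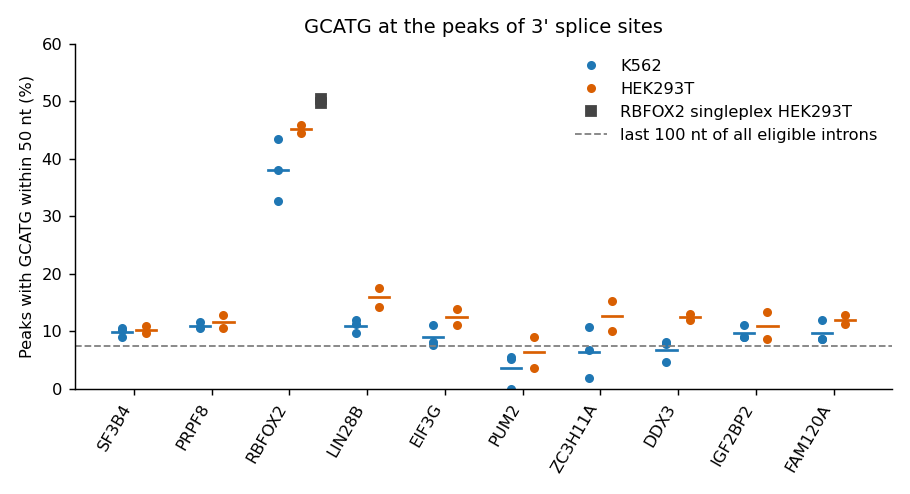
Share of the members of each library with GCATG within 50 nt of the peak, in percent. Dots are 10plex libraries, short lines are means over replicates, squares are the 2 singleplex RBFOX2 libraries, and the dashed line is the share of all eligible introns with GCATG in their last 100 nt (7.53%). RBFOX2 lies between 32.7% and 50.4%, above all other RBPs.

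Within RBFOX2, the motif went with enrichment and with recovery. Among CC-enriched members 58%, 70.8% and 71.8% held it in K562 and 77.5% and 85.9% in HEK293T, and among the other members 28.7%, 38.5%, 32.5%, 43.5% and 42%. Of the 421 sites with an RBFOX2 peak in all 4 HEK293T libraries of both formats, 73.6% had it, against 34.3% of 4734 sites found in 1 of these libraries. A site counted when GCATG was within 50 nt of a peak, and sites of all 4 libraries had more peaks beside which it could lie. The share for 1 peak per site was not measured. The members were spread widely, with medians of 60, 60 and 61 nt in K562, 65 and 67 nt in HEK293T and 63 and 60 nt in singleplex ABC. Close to the exon, within 20 nt, 28.9% to 35% of K562 members held the motif, and 31.9% to 46% of those 61 to 100 nt away.

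Singleplex and 10plex RBFOX2 in HEK293T were compared over the external background, since a singleplex tube holds no other antibodies for a CC. For singleplex SLBP, the paper took the RBPs of the multiplex set as the CC. The paper gives RNA-seq as the background of both singleplex and multiplexed ABC, and size-matched input as that of eCLIP. Its methods name different RNA-seq data for each cell line. Which data a given library was set against is not stated library by library in the sources used here. At 3′ splice sites were 2.66% and 2.65% of the enriched singleplex peaks and 2% and 1.84% of the enriched 10plex peaks, with no overlap and a difference of 0.736 points (exact permutation p = 0.33, the smallest that 2 against 2 libraries can give). In singleplex ABC 1414 of 7950 members were enriched (17.8%, background 10%), and in 10plex ABC 648 of 3436 (18.9%, background 9.2%). The sites of any singleplex library (5984) and any 10plex library (2738) had 1587 in common, which was 26.5% of the former and 58% of the latter.

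The intron end of LRCH4, a leucine-rich repeat protein, had an RBFOX2 peak in all 7 libraries, with 142, 265 and 214 reads in K562, 81 and 167 in HEK293T and 365 and 235 in singleplex ABC. Its log2 fold over the CC was 5.39 ± 0.20 in K562 (n = 3) and 4.71 ± 0.19 in HEK293T (n = 2), and its centres lay 67 to 75 nt from the exon. The nearest GCATG was 113 nt from the exon, upstream of the peak. PPIP5K2, a kinase of inositol pyrophosphates, had 7, 22 and 18 reads in K562 and 47 in each HEK293T library, with the motif at 63 nt. At ADAM15, a membrane metalloprotease, the centres were 88, 89 and 58 nt from the exon in K562. They were 31 to 33 nt away in the 4 HEK293T libraries. The ADAM15 reads were 21, 30 and 31 in K562, 146 and 229 in 10plex HEK293T and 650 and 464 in singleplex ABC. Read numbers here are not scaled to depth. RBFOX2 libraries held 365158 to 655109 reads in merged peaks in K562 and 1564882 to 4415108 in HEK293T. The log2 fold of ADAM15 over the CC was 4.56 ± 0.94 in K562 (n = 3) and 4.54 ± 0.42 in 10plex HEK293T (n = 2). YARS1, the tyrosyl-tRNA synthetase, had 10, 22 and 10 reads in K562 and 77 and 98 in 10plex HEK293T, where 3 of the 5 peaks were CC-enriched.

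For the other 7 RBPs of 10plex ABC, many members were snoRNAs within the window. Over all libraries, 1624 members at 107 sites lay in an annotated small RNA gene, and 1483 of them in 53 snoRNAs, with a median distance of 90 nt from the exon, and in all 54 libraries. SNORA10 and SNORA64, in introns 6 and 4 of the ribosomal protein gene RPS2, had a peak in all 35 libraries of these 7 RBPs, and SNORD16 in RPL4 and SNORD54 in RPS20 in 34. Peaks in microRNA genes were fewer, with 118 members and a median of 30.5 nt. Small RNA genes took 84%, 89.5% and 61.1% of the PUM2 members in K562 and 54.5% and 53.6% in HEK293T, 55.4%, 42.2% and 30.6% of those of DDX3 in K562, and 1.15%, 0.477% and 0.678% of those of SF3B4.

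**Figure D5:**
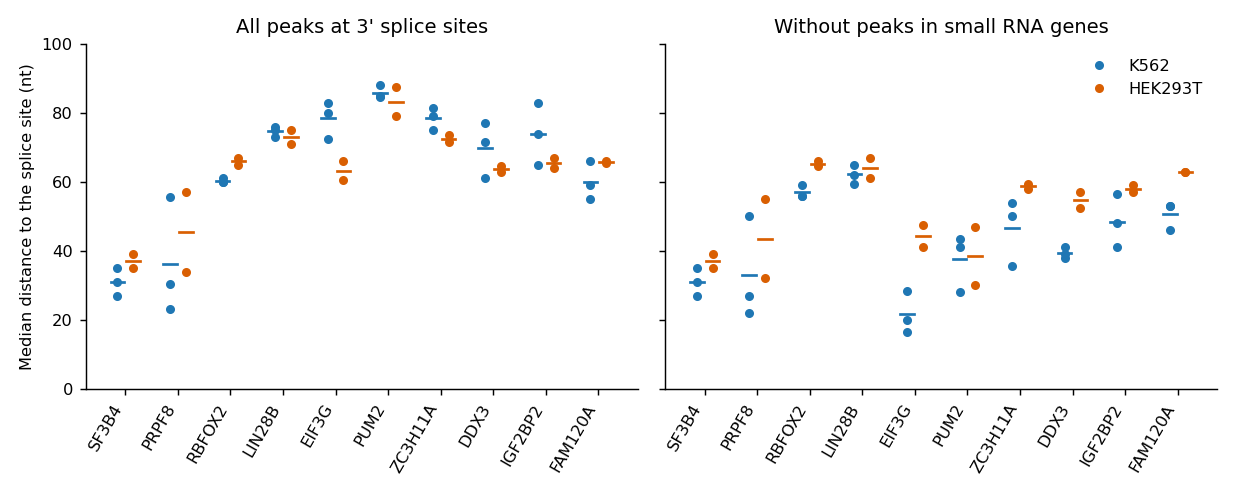
Median distance of peak centres from the 3′ splice site in nt, for all members (left) and without members in small RNA genes (right). Each dot is a 10plex library and short lines are means over replicates. SF3B4 stays at 27 to 39 nt on both sides, and EIF3G in K562 falls from between 72.5 and 83 nt to between 16.5 and 28.5 nt.

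Removing these members changed the profile of several RBPs and left few peaks. The median distance of EIF3G, a subunit of the translation initiation factor eIF3, was 83, 80 and 72.5 nt in K562 and became 20, 28.5 and 16.5 nt over 11, 22 and 18 remaining members. PUM2, a repressor that binds 3′ untranslated regions, kept 4, 2 and 7 members in K562. Its median intron length in K562 was 291, 277 and 353.5 nt, 0.365 shorter on the log10 scale than that of the other 9 (difference -0.365, exact permutation p = 0.004, adjusted 0.02). Without members in small RNA genes the difference was 0.468 in the other direction (exact p = 0.003), on these few peaks. In FAM120A, 13.2% to 23.4% of K562 members and 5.6% and 6.77% of HEK293T members were in small RNA genes.

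LIN28B, a repressor of let-7 processing, was the only RBP of 10 whose share of first introns passed the test against the other 9 in K562. The share was 16.7%, 19.6% and 19.4% there (18.5% ± 1.62, n = 3, over 84, 92 and 62 members), 7.34 points above the mean of the others (exact permutation p = 0.001, adjusted 0.01), and highest in its pool in all 3 replicates. In HEK293T it was 20% and 18.7%, 3.56 points above the others (exact p = 0.39). With introns of at least 500 nt the K562 difference was 5.48 points (exact p = 0.067). The LIN28B site with the highest fold, in the first intron of STOML2, a mitochondrial membrane protein, had 8, 9 and 5 reads in K562 and 9 and 4 in HEK293T, with log2 folds of 7.03, 6.29 and 5.47, and 4.31 and 3.35.

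SLBP, which binds the stem loop of histone mRNA, had 51 and 30 members in its singleplex libraries, and 31.4% and 26.7% of them were in small RNA genes. Over the external background 53 of the 81 were enriched (65.4%, background 55.3%). By replicate these were 23 of 51 members, where 1678 of all 4445 peaks were enriched, and 30 of 30, where 1741 of 1743 were. The call thus hardly separates peaks in replicate 2. The highest SLBP fold over the external background was at intron 2 of RPL23A (log2 8.05 and 8.32, 28 and 8 reads), in SNORD4A. For DDX3, EIF3G, FAM120A, IGF2BP2, PUM2 and ZC3H11A no splice site could be named, as none was CC-enriched in all 3 K562 replicates except 1 of EIF3G, in intron 17 of ARHGEF40, which was left out of the naming as it lay beside an adapter-like sequence. Over the 10 RBPs, the differences between HEK293T and K562 in share, distance, rank, length and GCATG could not pass the exact permutation test, as 2 against 3 libraries cannot give a p below 0.2 there.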

How the data were processed

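Peaks of 9 samples (54 libraries) were used. The authors trimmed reads (cutadapt 2.8 per the labels), aligned them to GRCh38 (STAR 2.7.6), removed duplicates and called peaks in each library with CLIPper, depositing its p-value with a display score. They deposited merged peaks with a −log10 P and a log2 fold over an external background, and CC values as a chi-squared statistic (K562 replicates 1 and 2 and HEK293T, without peaks in repeats) or as −log10 P and log2 fold (K562 replicate 3, with such peaks). Reads per peak came from the deposited names or were recovered from the fold, and CC reads were solved from the statistic. The recovery was tested on statistics simulated from the 10 libraries of K562 replicate 3. There, 100% of enriched peaks were recovered in each library, and at most 0.0343% of calls were false. In the real RBFOX2 libraries of HEK293T, whole read numbers gave the deposited statistic for 71.6% and 63.9% of peaks. The simulation does not cover peaks that no whole number fits, so that it does not vouch for their CC calls.

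Introns came from GENCODE release 44 (the authors used 35), so that transcripts may differ. The members and lists were chosen with earlier results of these data known. Libraries of a pool share 1 tube, and RBP labels were permuted exactly within pools (Python 3.11.15, numpy 2.4.6, pandas 2.3.3, scipy 1.17.1). The value of a library was its share or median, the threshold was 0.05, and the correction of Benjamini and Hochberg was made over 10 RBPs. GCATG and CTNAC were searched with pysam 0.24.0. Named sites had the highest mean log2 fold among sites enriched in all K562 replicates (SF3B4 6, PRPF8 and RBFOX2 2, others 1), in both lines (SF3B4 3) or in singleplex ABC (RBFOX2 3, SLBP 1), and for sites of 1 line the most reads (2 each), leaving out chromosome 8 and adapter-like sequence. One site that this rule names is not reported here. Alternatives were stricter limits, the external background, all merged peaks, a 50 nt window, introns of at least 500 nt, sites in place of peaks, adapter-like sites, no replicate block and single replicates left out. The effect of depth on the number of peaks called was not tested.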

Additional observations from a re-analysis of the deposited data

Results flagged for a closer look

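For FAM120A, the median distance to the splice site lay on different sides of the mean of the other 9 RBPs in the cell lines. It was 5.44 nt closer to the exon in K562 (difference -5.44, from -6.56 to -4.11 over 3 replicates) and 2.44 nt further away in HEK293T (from 0.667 to 4.22 over 2), a change of 7.89 nt between the lines. That change was not tested. Against the other 9, the FAM120A distance did not pass the exact permutation test in K562 (p = 0.699) or in HEK293T (p = 0.79). The FAM120A medians themselves overlapped between the lines. For IGF2BP2, the mean share of members in first introns was below that of the others in K562 and above it in HEK293T. From rounded shares, the mean difference was -1.18 points in K562 (from -1.92 to -0.00222). In HEK293T it was 4.06 (from 0.0178 to 8.11), a change of 5.24 points. The values -0.00222 and 0.0178 are smaller than the rounding, so the side of a replicate in each line cannot be told. The exact permutation test against the other 9 was not passed in K562 (difference -1.16, p = 0.566) or in HEK293T (difference 4.03, p = 0.34). The IGF2BP2 change between the lines was not tested either.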

How the results depend on the processing

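Of 130 alternative values, 110 kept their direction and their side of the threshold or, for counts, stayed within 1.5 times. The alternatives of HEK293T against K562 and of singleplex against 10plex could not cross the threshold in any setting. For these, only the direction could change. The SF3B4 share of CC-enriched peaks and the RBFOX2 share of GCATG did so under every alternative run in K562. Without 1 replicate, the SF3B4 share in HEK293T differed from the others by 55.3 to 61.8 points, with an exact p of 0.1, the smallest that 1 pool can give. The SF3B4 distance in K562 was 6.96 nt within the last 50 nt of the intron, -17.1 nt with CC-enriched members alone (PUM2 left out, as 1 of its libraries had none) and -13 nt without small RNA genes. The SF3B4 intron length on the log10 scale was 0.17 with CC-enriched members, 0.215 within 50 nt and 0.23 without small RNA genes. The PUM2 length turned to 0.382 within 50 nt, 0.00892 with introns of at least 500 nt and 0.468 without small RNA genes. Sites with an SF3B4 peak in every replicate fell to 608 in K562 and 1189 in HEK293T with CC-enriched members, and were 1828 to 3332 and 6265 to 7695 without 1 replicate; the K562 count is set most by replicates 1 (3332 without it) and 3 (2667). Leaving out small RNA genes, and all alternatives of PRPF8, LIN28B and PUM2, were added after seeing the data. The cause of these changes was not tested. No replicate block, run over all arrangements in place of random ones, gave 65.8 points for the SF3B4 share in K562 (exact p = 0.000246) and changed no call. With same-numbered replicates paired, the HEK293T minus K562 difference in that share was -5.06 points (exact permutation p = 1). The singleplex minus 10plex difference of RBFOX2 was 0.736 points (exact permutation p = 0.5). The smallest possible p was 0.5 in both, so that the pairing could not have moved a call. The labels do not say that these numbers mark shared cultures or days.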
